A study of Mus musculus with 24 samples.

Results

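The 9 genes described here encode alpha-1 subunits of the voltage-gated calcium channels: Cacna1s, Cacna1c and Cacna1d of the Cav1 class, Cacna1a, Cacna1b and Cacna1e of the Cav2 class, and Cacna1g, Cacna1h and Cacna1i of the Cav3 class. They are 9 of the 47937 gene entries of an RNA-seq count table, taken by symbol. The family was chosen by the counts of Cacna1i, whose RNA rose from near 0 in every mutant line. The values of Cacna1i against WT are therefore given as a description with no test. The other members were taken by name, whatever their values. In the low-count filter used for testing, 6 members passed (Cacna1a, Cacna1b, Cacna1c, Cacna1e, Cacna1g and Cacna1i) and Cacna1d, Cacna1h and Cacna1s did not. Cacna1e passed only through its counts in 6KO1.

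The alpha-1 subunit is the part of a calcium channel that forms the pore, senses the membrane voltage and sets the channel type. Cav1 subunits give the long-lasting L-type current of muscle and endocrine cells, Cav2 subunits give the P/Q-, N- and R-type currents that trigger transmitter release at nerve endings, and Cav3 subunits give the T-type current that opens at low voltage. Accessory beta and alpha2delta subunits bring Cav1 and Cav2 channels to the cell surface and tune their gating, whereas Cav3 channels work largely without them. Fibroblasts are not excitable cells and are not known for large voltage-gated calcium currents.

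RNA from mouse embryonic fibroblasts (MEFs) was sequenced in 24 libraries, 3 biological replicates in each of 8 conditions, to compare cells that lose the enzymes methylating lysine 9 of histone H3 (H3K9 KMTs) step by step. These enzymes are Eset1 (Setdb1), Eset2 (Setdb2), Suv39h1, Suv39h2, G9a (Ehmt2) and Glp (Ehmt1). All conditions share a conditional Eset1 allele and a Cre recombinase that responds to tamoxifen. WT is the clone with high Cre activity left without 4-hydroxytamoxifen (4-OHT), so it is not a genetically unmodified line, and E1 (Eset1 KO) is the same clone after 1 µM 4-OHT. Series 1 holds E1 S1S2, which also lacks Suv39h1 and Suv39h2, and 6KO1, which lacks all 6 enzymes. Series 2 holds E2 (conditional Eset1 with Eset2 KO, no 4-OHT), E1E2 (the same clone after 4-OHT), E1E2 G9Gl, which also lacks G9a and Glp, and 6KO2, which again lacks all 6. E1 S1S2, 6KO1, E1E2 G9Gl and 6KO2 were all given 4-OHT for 2 days and then kept in plain medium for 2 more. Each CRISPR/Cas9 genotype is 1 clone, to which a further inducible Cre construct was added under puromycin selection, so clone and genotype cannot be told apart. The p-values measure the spread between cultures of these clones.

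Libraries held 24736829 to 37419071 counts, of which 19541909 to 31489070 fell on genes. WT replicate 2 stood apart from the other WT libraries (mean absolute log2 difference over tested genes 0.387 and 0.352, against 0.201 between WT replicates 1 and 3), and E2 replicate 2 stood apart for Cacna1a. RNA of the targeted genes fell in some lines and not in others. Setdb1 was at 60.4 ± 2.87 CPM (counts scaled to a common library total; SD, n = 3) in WT and 40.7 ± 2.09 in E1, but at 48.7 ± 7.71 in E2 and 48.9 ± 1.72 in E1E2. Ehmt2 was at 128 ± 19.5 CPM in WT and 39.6 ± 2.28 in E1E2 G9Gl, and Suv39h2 at 39.5 ± 3.38 CPM in WT and 67.2 ± 5.95 in E1 S1S2. The mutations delete exons of Eset1 and shift the reading frame of the other genes. Counts summed over a gene therefore need not fall and do not measure the knockouts. The paper checked loss of the proteins by western blot, and the Eset2 mutation by exon sequencing. The 10 fibroblast markers on the list summed to 6715 to 8505 CPM in WT and 3749 to 4239 CPM in 6KO1. Of these, 5 were called lower in 6KO1 and 4 in E1 S1S2, where 30.9% and 11.8% of all tested genes were called. In E1E2 G9Gl 2 were called higher and 1 lower. Thy1 had 1 count in the 3 libraries of 6KO1, 3 in those of E1 S1S2 and 5 in those of 6KO2. It was at 7.86 CPM in WT and 16.3 CPM in E1E2 G9Gl. Twist1 was at 13.3 CPM in WT and 0.706 in 6KO1, while Prrx1 was at 83.6 and 67.1 CPM and Vim at 1926 and 1368 CPM. The part of this in the results for the alpha-1 genes was not tested. Library values are in CPM scaled by TMM factors, which compare a gene between libraries. Levels of different genes are compared as CPM per kb of exon. In such bulk RNA, fewer cells that express a gene and less RNA per cell cannot be told apart.

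RefSeq promoter windows of 300 bases (GRCm38.p6) were found for 6 of the 9 members, and Cacna1a, Cacna1g and Cacna1h had none. Those of the gene that defined the choice, of the Cav2 gene raised in 6KO1 and E1E2 G9Gl, and of the Cav1 gene lowered in every line are printed with CpG dinucleotides, the sites of mammalian DNA methylation, in capitals. The Cacna1i window is chr15:80286988-80287287 (plus strand), the Cacna1b window chr2:24763103-24763402 (minus strand) and the CpG-rich one of 3 Cacna1c windows chr6:119108446-119108745 (minus strand).
Cacna1i: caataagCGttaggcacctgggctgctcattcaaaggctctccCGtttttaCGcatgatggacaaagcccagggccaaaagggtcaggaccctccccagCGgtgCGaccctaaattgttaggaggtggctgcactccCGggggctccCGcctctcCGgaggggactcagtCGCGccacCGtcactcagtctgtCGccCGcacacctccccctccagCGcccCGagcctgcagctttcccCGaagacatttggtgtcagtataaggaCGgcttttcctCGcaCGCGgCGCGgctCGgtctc
Cacna1b: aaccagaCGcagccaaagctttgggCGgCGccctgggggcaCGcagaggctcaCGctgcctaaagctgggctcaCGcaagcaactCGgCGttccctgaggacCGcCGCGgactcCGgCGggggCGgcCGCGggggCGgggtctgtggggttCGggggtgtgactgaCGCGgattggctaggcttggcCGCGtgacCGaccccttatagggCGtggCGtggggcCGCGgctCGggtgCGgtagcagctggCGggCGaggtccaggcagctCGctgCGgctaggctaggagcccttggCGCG
Cacna1c: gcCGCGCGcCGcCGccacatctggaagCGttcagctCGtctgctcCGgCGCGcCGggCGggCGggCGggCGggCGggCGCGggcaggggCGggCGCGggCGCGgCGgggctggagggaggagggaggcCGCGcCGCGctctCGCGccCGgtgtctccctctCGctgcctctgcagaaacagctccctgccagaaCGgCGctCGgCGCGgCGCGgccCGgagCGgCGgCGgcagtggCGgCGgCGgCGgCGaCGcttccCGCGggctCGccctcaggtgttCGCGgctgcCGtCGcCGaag
The Cacna1i window holds 23 CpG, and 21.5% of the 32851 mouse promoter windows hold at least as many (median 7). The Cacna1b window holds 35 (6.95% of windows hold at least as many) and the Cacna1c window 57 (0.152%), so all 3 lie in the CpG-rich part of the range. The other Cacna1c windows hold 3 and 7 CpG. The RNA counts are sums over a gene and do not tell which start was used. The sequence GGGCGG (GC box), read on both strands, occurs in the Cacna1b window and the CpG-rich Cacna1c window but not in the Cacna1i window, and in 35.7% of all windows. Neither CACGTG (7.15% of windows) nor TGACGTCA (1.79%) was found in any window of the 6 members.

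Cacna1c, which encodes Cav1.2, the main L-type channel of heart and smooth muscle, had the highest level per length of the 9 genes in WT, at 1.00 ± 0.221 CPM per kb (SD, n = 3). It spans chr6:118587240-119196418 on the minus strand. Its RNA was at 25.4, 16.2 and 22.2 CPM in the 3 WT libraries, 4.94, 4.33 and 3.82 in E1, 9.49, 9.27 and 9.66 in E1 S1S2, and 0.243, 0.172 and 0.270 in 6KO1 (7, 5 and 7 counts). In series 2 it was at 4.46, 3.65 and 4.37 CPM in E2, 5.37, 4.94 and 4.78 in E1E2, 4.21, 3.97 and 3.75 in 6KO2, and 0.938, 0.548 and 0.768 in the 3 E1E2 G9Gl libraries. Every mutant library lay below every WT library, and the lowest levels were those of 6KO1 and E1E2 G9Gl. Against WT, Cacna1c fell in all 7 comparisons, with log2 fold changes (± SE) from -1.16 ± 0.13 in E1 S1S2 to -6.52 ± 0.21 in 6KO1 and edgeR adjusted p between 9e-18 and 6.75e-08. A gene was called when its absolute log2 fold change was at least 1 and its Benjamini-Hochberg adjusted p over all 18565 tested genes at most 0.01.

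The course of Cacna1c along the clones was not one-way. It rose from E1 to E1 S1S2 by 1.12 ± 0.14 on the log2 scale (edgeR adjusted p = 7.6e-07) and then fell by 5.35 ± 0.22 to 6KO1 (1.58e-15). In series 2 it fell by 2.73 ± 0.21 from E1E2 to E1E2 G9Gl (edgeR adjusted p = 5.58e-11) and rose again by 2.39 ± 0.21 to 6KO2 (1.78e-09). The 2 lines without any of the 6 enzymes thus differed: Cacna1c was higher in 6KO2 than in 6KO1 by 4.10 ± 0.25 (2.75e-12). Smooth muscle markers, of a cell type known for this channel, also differed: the summed level of the 5 genes (Acta2, Myh11, Cnn1, Tagln and Smtn, none at 0 in any condition) was 614 to 788 CPM in WT, 91.9 to 99.0 in E1 S1S2, 124 to 128 in 6KO1, 384 to 403 in E1E2 G9Gl and 501 to 538 in 6KO2. In 6KO1, where 30.9% of all tested genes were called, 3 of the 5 were called lower and 1 higher. The latter, Myh11, passed the filter only through 6KO1, so its call is bound to the filtering. Their part in the Cacna1c result was not tested.

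**Figure D1:**
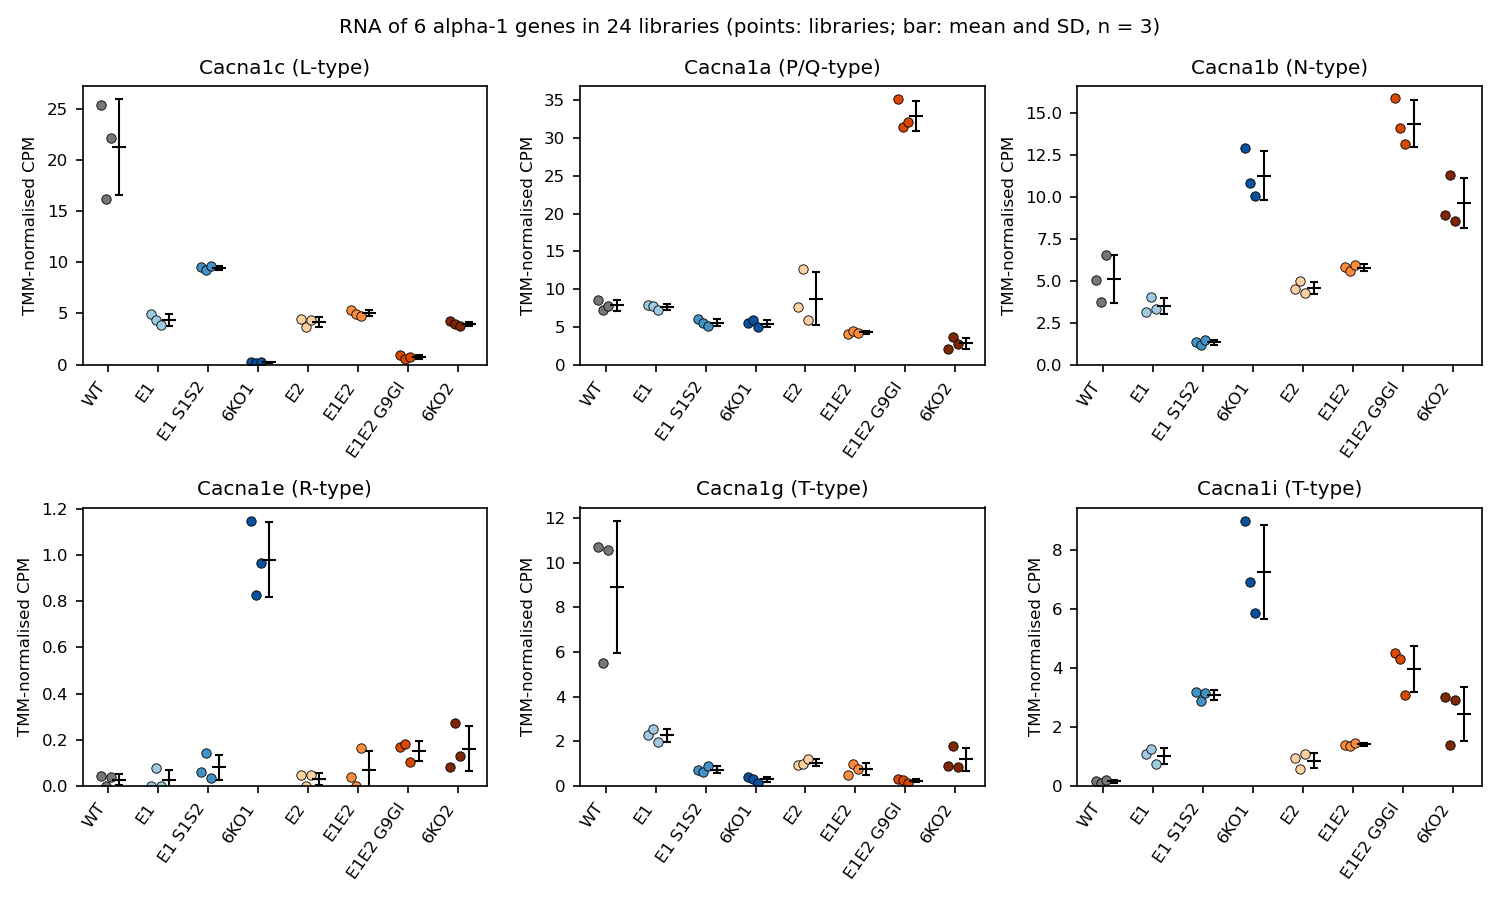
CPM (linear axis from 0, scaled by TMM factors) of the 6 tested alpha-1 genes in the 8 conditions; points are libraries, and the bar beside them gives the mean and SD of 3. Cacna1c and Cacna1g are highest in WT, Cacna1a stands out in E1E2 G9Gl at 31.5 to 35.2 CPM, and Cacna1i and Cacna1e are highest in 6KO1.

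Cacna1d (Cav1.3, an L-type channel of endocrine, hair and pacemaker cells) and Cacna1s (Cav1.1, the voltage sensor of skeletal muscle) were at or near 0. Cacna1d had no count in WT, E1, E1 S1S2, E2 or E1E2. Its highest counts were the 6, 3 and 3 of E1E2 G9Gl, with 2, 2 and 1 in 6KO1 and a single count in 1 library of 6KO2. With WT set to a floor of 3 counts over its 3 libraries, Cacna1d was at least 4.73-fold higher in E1E2 G9Gl. Cacna1s had at most 2 counts in any library. Exons of Cacna1d overlap those of Chdh by 589 bases and exons of Cacna1s those of Gm37759 by 1309 bases, each on the other strand, and whether the counting used strand is not given in the sources used here.

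Cacna1a encodes Cav2.1, the P/Q-type channel of central synapses, and spans chr8:84388440-84640246 on the plus strand. Its RNA was at 8.59, 7.18 and 7.73 CPM in WT, 7.91, 7.76 and 7.19 in E1, 6.03, 5.44 and 5.15 in E1 S1S2, and 5.52, 5.85 and 4.91 in 6KO1. In series 2 it was at 7.61, 12.7 and 5.87 CPM in E2, 4.09, 4.46 and 4.21 in E1E2, 2.08, 3.61 and 2.71 in 6KO2, and 35.2, 31.5 and 32.1 in the 3 E1E2 G9Gl libraries. E1E2 G9Gl was far above all other libraries, and E1 S1S2, 6KO1, E1E2 and 6KO2 lay below all WT libraries. Against WT, Cacna1a rose by 2.07 ± 0.17 (log2) in E1E2 G9Gl (edgeR adjusted p = 2.49e-10) and fell by 1.49 ± 0.21 in 6KO2 (1.69e-06). In the other 5 comparisons with WT it was not called. Among them, the difference in E1E2 was -0.88 ± 0.20 (edgeR adjusted p = 0.000794), under the fold minimum. Its exons overlap those of the antisense gene Gm16183 by 435 bases, which had 2 to 15 counts per library.

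Within series 2, Cacna1a rose by 2.95 ± 0.19 from E1E2 to E1E2 G9Gl (edgeR adjusted p = 2.1e-12), and fell by 3.56 ± 0.20 from there to 6KO2 (4.99e-13). No other member moved as far in opposite directions along consecutive clones of that series. From E2 to E1E2 it fell by 1.06 ± 0.19 (edgeR adjusted p = 0.000333), a call that rested on E2 replicate 2: without that library the difference was -0.67, short of the fold minimum. In series 1 the step from E1 to E1 S1S2 left it uncalled (edgeR adjusted p = 0.0493), as did the step to 6KO1 (0.901).

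Cacna1b encodes Cav2.2, the N-type channel of sensory and sympathetic nerve endings, and spans chr2:24603887-24763152 on the minus strand. Its RNA was at 5.05, 3.72 and 6.54 CPM in WT, 3.16, 4.06 and 3.30 in E1, 1.36, 1.18 and 1.46 in E1 S1S2, and 12.9, 10.8 and 10.1 in 6KO1. In series 2 it was at 4.51, 4.96 and 4.27 CPM in E2, 5.80, 5.55 and 5.96 in E1E2, 8.95, 11.3 and 8.60 in 6KO2, and 15.9, 14.1 and 13.2 in the 3 E1E2 G9Gl libraries. The 9 libraries of clones that lack G9a and Glp lay above all WT libraries, and those of E1 S1S2 lay below them. Against WT, Cacna1b fell by 1.93 ± 0.19 (log2) in E1 S1S2 (edgeR adjusted p = 1.25e-08). It rose by 1.50 ± 0.15 in E1E2 G9Gl (edgeR adjusted p = 6.89e-09) and by 1.15 ± 0.15 in 6KO1 (4.01e-07). In 6KO2 the difference was 0.92 ± 0.15 (edgeR adjusted p = 1.84e-05), under the fold minimum, and without WT replicate 2 that in 6KO1 was 0.96, also under it.

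Between mutant lines, Cacna1b fell by 1.39 ± 0.20 from E1 to E1 S1S2 (edgeR adjusted p = 4.08e-06) and rose by 3.08 ± 0.18 from E1 S1S2 to 6KO1 (5.87e-13). It also rose by 1.32 ± 0.15 from E1E2 to E1E2 G9Gl (edgeR adjusted p = 6.08e-08). Its level did not pass the call between 6KO1 and 6KO2 (log2 difference -0.23 ± 0.14, edgeR adjusted p = 0.171), where Cacna1c, Cacna1g and Cacna1i did. Neuron markers, from a list of 11 genes, had a summed level of 28.0 to 34.0 CPM in WT, 29.8 to 32.2 in 6KO1, 96.9 to 102 in E1E2 G9Gl and 171 to 187 in 6KO2. Of these markers Rbfox3, Snap25, Syt1 and Nefm were at 0 in WT, and Rbfox3 and Elavl4 in E1E2 G9Gl. Most of the sum was Tubb3, at 28.7 CPM in WT and 21.2 in 6KO1, while Syn1 was at 0.633 CPM in WT and 8.58 in 6KO1. Of the 5 markers tested, 3 were called higher and 1 lower in 6KO1, and 5 higher in each of E1E2 G9Gl and 6KO2. The shares called over all tested genes were 30.9%, 25.2% and 20.7%. Snap25 passed the filter only through E1E2 G9Gl, so its call there is bound to the filtering. The part of these markers in the Cav2 results was not tested.

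Cacna1e encodes Cav2.3, the R-type channel of neurons and some endocrine cells, and spans chr1:154390731-154884501 on the minus strand. It had 33, 24 and 25 counts in 6KO1 and at most 6 in any other library, with 1, 0 and 1 in WT. The ratio of summed counts, scaled by library, was 37.5 for 6KO1 against WT (exact 95% interval 10.1 to 315, counting error only). Against 6KO2, the other line without the 6 enzymes, the ratio was 6.19 (3.28 to 12.9). Since it passed the filter only through 6KO1, a comparison with 6KO1 uses the values that admitted it, and no p is given for it. At 0.0388 ± 0.00638 CPM per kb in 6KO1, it remained far below Cacna1b at 1.13 ± 0.148 CPM per kb in the same libraries.

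Cacna1g encodes Cav3.1, the T-type channel of thalamic and pacemaker cells, and spans chr11:94408391-94474198 on the minus strand. It was the main Cav3 gene of WT, at 0.881 ± 0.292 CPM per kb (SD, n = 3). Its RNA was at 10.7, 5.52 and 10.6 CPM in WT, 2.28, 2.57 and 1.98 in E1, 0.711, 0.608 and 0.888 in E1 S1S2, and 0.417, 0.309 and 0.155 in 6KO1. In series 2 it was at 0.940, 0.992 and 1.22 CPM in E2, 0.506, 1.01 and 0.776 in E1E2, 0.899, 1.81 and 0.873 in 6KO2, and 0.298, 0.274 and 0.154 in the 3 E1E2 G9Gl libraries. WT replicate 2 was the lowest WT library and still lay above every mutant library. Against WT, Cacna1g fell in all 7 comparisons, with log2 fold changes from -1.97 ± 0.24 in E1 to -5.15 ± 0.35 in E1E2 G9Gl, with edgeR adjusted p between 3.76e-12 and 1.04e-06.

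The E2 clone, which had no 4-OHT, already had less Cacna1g than WT, with a log2 fold change of -3.08 ± 0.27 (edgeR adjusted p = 4.7e-09), and no further call was made from E2 to E1E2 (-0.47 ± 0.37, 0.439). Cacna1g fell by 1.62 ± 0.31 from E1 to E1 S1S2 (edgeR adjusted p = 0.000166). The further difference to 6KO1, -1.29 ± 0.44, missed the threshold (edgeR adjusted p = 0.0149) at 25 summed counts in 6KO1. From E1E2 to E1E2 G9Gl it fell by 1.60 ± 0.51 (edgeR adjusted p = 0.00891), a call lost when any of 5 of the 6 libraries compared was left out (adjusted p up to 0.0449). It rose by 2.24 ± 0.47 from E1E2 G9Gl to 6KO2 (edgeR adjusted p = 0.00031) and was higher in 6KO2 than in 6KO1 by 1.97 ± 0.42 (0.000344). Cacna1h, which encodes Cav3.2, the T-type channel of pain-sensing neurons, had 1, 2 and 3 counts in WT and at most 2 in any mutant library.

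Cacna1i encodes Cav3.3, the slowest of the T-type channels, known from thalamic reticular neurons, and spans chr15:80287238-80398279 on the plus strand without exon overlap with another annotated gene. It had 4, 3 and 5 counts in WT, 28, 32 and 21 in E1, 103, 81 and 89 in E1 S1S2, and 259, 201 and 152 in 6KO1. In series 2 it had 20, 16 and 23 counts in E2, 36, 31 and 36 in E1E2, 74, 31 and 67 in 6KO2, and 106, 94 and 60 in the 3 E1E2 G9Gl libraries. All 21 mutant libraries lay above the WT libraries, which is what the choice of the family used. In CPM the means rose from 0.158 ± 0.0459 in WT through 0.862 ± 0.265 in E2, 1.02 ± 0.265 in E1, 1.41 ± 0.0575 in E1E2, 2.45 ± 0.910 in 6KO2, 3.08 ± 0.160 in E1 S1S2 and 3.96 ± 0.779 in E1E2 G9Gl to 7.26 ± 1.59 in 6KO1. The ratio to WT of summed counts, scaled by library, ran from 5.33 in E2 (exact 95% interval 2.83 to 10.9, counting error only) to 46.7 in 6KO1 (26.5 to 90.9). These intervals are wide because the 3 WT libraries hold only 12 counts together.

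The differences of Cacna1i among the mutant lines were not used in choosing it and were tested. It rose by 1.60 ± 0.26 (log2) from E1 to E1 S1S2 (edgeR adjusted p = 2.14e-05) and by a further 1.24 ± 0.20 to 6KO1 (1.52e-05). In series 2 the difference from E2 to E1E2 was 0.74 ± 0.31 and missed the threshold (edgeR adjusted p = 0.104), and Cacna1i rose by 1.49 ± 0.25 from E1E2 to E1E2 G9Gl (1.51e-05). From E1E2 G9Gl to 6KO2 the difference was -0.69 ± 0.23 (edgeR adjusted p = 0.0144). The 2 lines without the 6 enzymes differed, with a log2 fold change of -1.56 ± 0.22 in 6KO2 against 6KO1 (1.65e-06). In the order of levels, the neighbours E2 and E1 (edgeR adjusted p = 0.585), E1 and E1E2 (0.235), 6KO2 and E1 S1S2 (0.251), and E1 S1S2 and E1E2 G9Gl (0.154) did not differ beyond their spread, nor, at 0.0148, did E1E2 and 6KO2 under the threshold of 0.01. E1E2 G9Gl lay below 6KO1 (log2 difference -0.87 ± 0.21, 0.000826), under the fold minimum.

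Of the annotated neighbours of Cacna1i that passed the filter, Rps19bp1, which lies 22923 bases before it, and Atf4, 29697 bases before it, were called in none of the 7 comparisons with WT, with log2 fold changes of -0.70 to 0.07 and -0.73 to 0.06. Enthd1, 53961 bases after Cacna1i, was called higher in E1 S1S2 (1.58, edgeR adjusted p = 0.00785) and 6KO1 (1.81, 0.0013), at levels below 1 CPM in every library. Tnrc6b, 313034 bases after it, was not called. The 5 tested genes whose log2 CPM over the 24 libraries was most like that of Cacna1i, by Pearson's r, were Pou3f1, a POU-domain transcription factor (0.957), Cobll1 (0.953), Esrra, a nuclear receptor of energy metabolism (0.946), P2rx7, an ATP-gated cation channel (0.940), and Mcub, an inhibitory subunit of the mitochondrial calcium uniporter (0.939). These r values describe points that share libraries and conditions. P2rx7, for one, was at 0.463, 0.505 and 0.555 CPM in WT and 118, 114 and 115 CPM in 6KO1.

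Taken over the family, the shares of the alpha-1 genes in their summed RNA differed between WT and the mutant lines. Per length, Cav1 genes held 32.4 ± 1.89% of the summed level of the 9 genes in WT (SD, n = 3), Cav2 genes 39.1 ± 3.65% and Cav3 genes 28.5 ± 3.86%. In 6KO1 the Cav1 share was 1.00 ± 0.0218% and in E1E2 G9Gl 1.03 ± 0.226%, against 11.2 ± 1.25% (6KO2) to 30.8 ± 0.928% (E1 S1S2) in the other mutant lines. The Cav2 share was 90.2 ± 1.32% in E1E2 G9Gl, of which Cacna1a alone held 60.0 ± 1.97 points. It was 42.8 ± 1.68% in E1 S1S2, and from 65.7 ± 2.16% (E1) to 75.1 ± 7.43% (E2) in the other mutant lines. In E1 no Cav2 gene was called higher than in WT, while Cacna1c and Cacna1g were lower. Cacna1i held 0.511 ± 0.0607% in WT and 30.0 ± 2.26% in 6KO1, where Cacna1g held 1.15 ± 0.387%. The Cav3 share itself was 31.2 ± 2.50% in 6KO1, near that of WT.

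**Figure D2:**
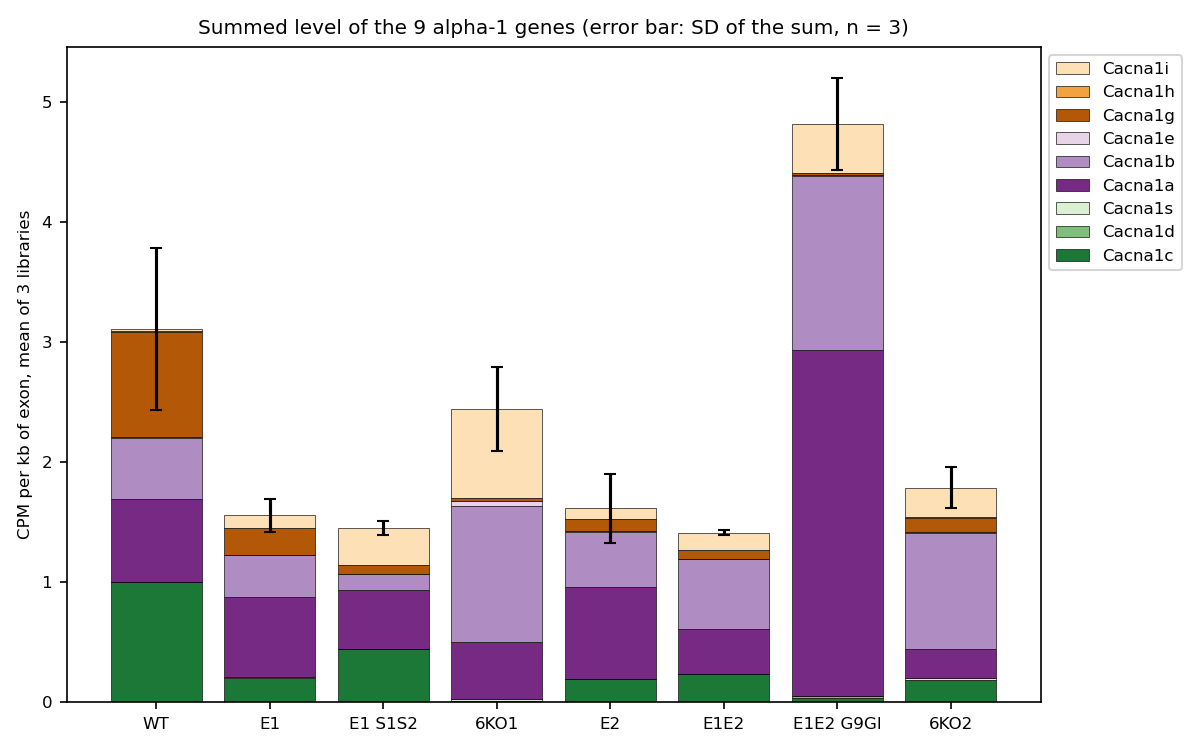
Summed level of the 9 alpha-1 genes in CPM per kb of exon (linear axis from 0), as the mean of 3 libraries per condition stacked by gene; the error bar is the SD of the sum. The sum is highest in E1E2 G9Gl, where Cacna1a and Cacna1b make up most of it, and Cacna1c is nearly absent there and in 6KO1.

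The summed level of the 9 genes was 2.34 to 3.54 CPM per kb in the WT libraries, 2.12 to 2.81 in 6KO1 and 4.51 to 5.24 in E1E2 G9Gl. The E1E2 G9Gl libraries were above all others. E1, E1 S1S2, E2, E1E2 and 6KO2 libraries ranged from 1.38 to 1.99, below all WT libraries.

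Counted over the members other than Cacna1i, 20 calls were made in the 7 comparisons with WT, 4 up and 16 down, of which Cacna1c and Cacna1g made 14. Without Cacna1e, whose call was bound to its filtering, there were 19, 3 up and 16 down. These counts stand beside shares called over all tested genes of 30.9% in 6KO1, 25.2% in E1E2 G9Gl, 20.7% in 6KO2, 11.8% in E1 S1S2, 8.73% in E1E2, 6.11% in E2 and 4.26% in E1. The comparisons share the WT libraries, and since they also served to choose the family, nothing is read from these shares. Between mutant lines all 6 tested members were counted, giving 21 calls in 6 comparisons, 12 up and 9 down, or 19 (11 up and 8 down) without Cacna1e. From E1 to E1 S1S2 2 members rose (Cacna1c and Cacna1i) and 2 fell (Cacna1b and Cacna1g), where 8.06% of all genes were called. From E1 S1S2 to 6KO1 Cacna1b and Cacna1i rose and Cacna1c fell, leaving Cacna1e aside (21.3% of all genes). From E2 to E1E2 Cacna1a alone was called, and it fell (2.97%). From E1E2 to E1E2 G9Gl 3 rose (Cacna1a, Cacna1b and Cacna1i) and 2 fell (Cacna1c and Cacna1g; 21.6%). From E1E2 G9Gl to 6KO2 Cacna1c and Cacna1g rose and Cacna1a fell (16.3%). In 6KO2 against 6KO1 Cacna1c and Cacna1g were higher and Cacna1i lower, again without Cacna1e (16.9%). In both steps at which G9a and Glp were removed (with Eset2 in the first series), Cacna1b and Cacna1i rose and Cacna1c fell.

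**Figure D3:**
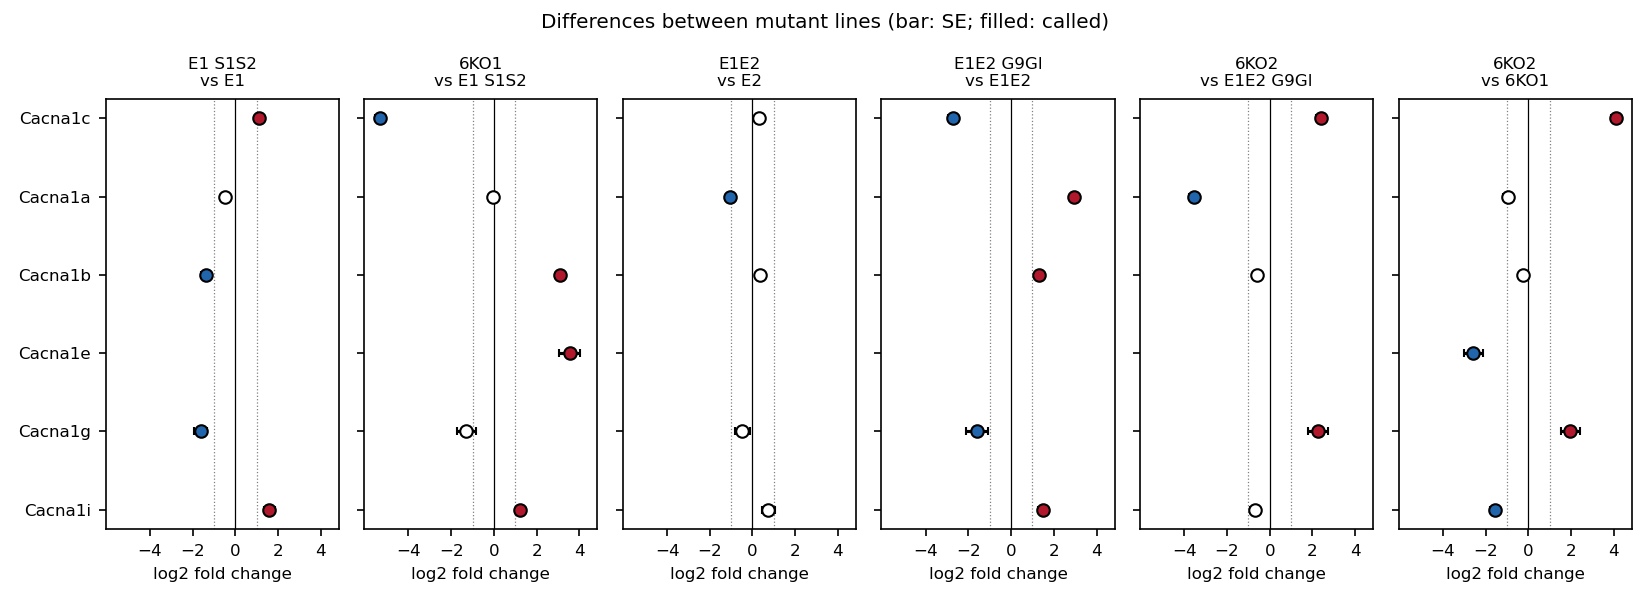
Log2 fold changes (x axis) of the 6 tested alpha-1 genes in the 6 comparisons between mutant lines; bars give the SE, filled points are called (red up, blue down), dotted lines mark the fold minimum, and Cacna1e is drawn only against 6KO1, the condition through which it passed the filter. Cacna1c and Cacna1g lie to the right in 6KO2 against 6KO1 and Cacna1i to the left. The Cacna1e points use the values that admitted it to the test. Their fill is bound to the filtering, and nothing is read from them.

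The effect of 4-OHT was compared between the clones with and without Eset2 by an interaction term, the change from E2 to E1E2 minus the change from WT to E1. Since 4-OHT deletes Eset1 in both clones, the drug and the deletion cannot be told apart. Cacna1c fell by 2.28 ± 0.14 (log2) from WT to E1 but differed by only 0.28 ± 0.15 from E2 to E1E2, where it was low before 4-OHT. The interaction was 2.57 ± 0.21 (edgeR adjusted p = 3.8e-09). For Cacna1a the interaction was -1.02 ± 0.27 (edgeR adjusted p = 0.00991), at the edge of the threshold, and it missed it in 19 of 29 alternatives (adjusted p from 7.41e-07 to 0.036). Without E2 replicate 2 it was -0.63 (edgeR adjusted p = 0.036). Cacna1b (0.87 ± 0.23, edgeR adjusted p = 0.0128) and Cacna1g (1.50 ± 0.45, 0.0247) missed it. Over all tested genes 8.88% passed this test. For Cacna1i, whose rise in E1 was used in choosing it, the counts were 12 in WT, 81 in E1, 59 in E2 and 103 in E1E2.

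The other parts of the channel complex and of calcium handling were followed in 7 lists of 56 genes, of which 33 passed the filter. Against WT, 12 list genes rose and 3 fell in 6KO1, 12 rose and 1 fell in 6KO2, 6 and 3 did so in E1E2 G9Gl, 4 and 2 in E1 S1S2, 1 and 3 in E1, 1 and 2 in E2, and 0 and 3 in E1E2. The shares called over all genes in the same comparisons are those given above for the members. Of the 33 genes, 6 (Cacnb4, Rem2, Ryr1, Atp2b2, Slc8a1 and Slc8a2) would not have passed the filter without the counts of a single condition, so their calls there are bound to the filtering. Without them 9 list genes rose and 3 fell in 6KO1, and 8 and 1 did so in 6KO2.

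Of the beta subunits, which chaperone the alpha-1 subunit, 3 of 4 were tested. Cacnb1 was at 2.57, 2.67 and 2.66 CPM in WT and 8.06, 6.91 and 6.10 in 6KO1, and rose there by 1.42 ± 0.18 (log2, edgeR adjusted p = 2.2e-07). Cacnb3 rose in E1 S1S2 by 1.39 ± 0.12 (edgeR adjusted p = 1.5e-09) and in 6KO2 by 1.01 ± 0.12 (1.7e-07). The alpha2delta subunits raise the surface density of Cav1 and Cav2 channels, and Cacna2d1 was the only 1 of 4 tested. It was at 63.4, 57.2 and 63.6 CPM in WT and 8.44, 9.46 and 8.62 in 6KO1, where it fell by 2.79 ± 0.07 (log2, edgeR adjusted p = 5.2e-20), and was called in no other line. Of the gamma family, which includes partners of glutamate receptors, Cacng8 fell in all 4 lines of series 2, with log2 fold changes from -1.84 ± 0.27 in E1E2 to -4.64 ± 0.42 in 6KO2. Cacng7 had one of -1.70 ± 0.13 in E1E2 G9Gl (edgeR adjusted p = 1e-10).

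RGK GTPases hold back Cav1 and Cav2 currents, and STAC adaptors hold L-type channels at the membrane. Stac2 rose in E1 S1S2 by 1.61 ± 0.19 (edgeR adjusted p = 1.5e-07) and in 6KO1 by 2.78 ± 0.18 (2e-12). Rrad fell by 1.59 ± 0.10 in E1E2 G9Gl (edgeR adjusted p = 3.1e-12). Gem fell in E1 S1S2 and E2 and rose in 6KO2 by 1.71 ± 0.26 (edgeR adjusted p = 4.5e-06).

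Sodium and leak channels are built on the same 4-domain plan as the alpha-1 subunits. Scn2a, a neuronal sodium channel, had 2 counts in WT in all, and its ratio to WT by summed counts was 319 in E1E2 G9Gl (exact 95% interval 87.9 to 2642, counting error only) and 72.3 in 6KO2 (19.6 to 603). Scn3a was at 3.79, 4.22 and 4.84 CPM in WT, 28.1, 27.3 and 28.3 in E1 S1S2 and 0.764, 1.07 and 1.08 in 6KO1. It rose by 2.70 ± 0.14 (edgeR adjusted p = 2.2e-13) in the former and fell by 2.14 ± 0.19 (1.1e-09) in the latter. Nalcn, a sodium leak channel, had log2 fold changes of -3.98 ± 0.34 in E1 S1S2 (edgeR adjusted p = 9.8e-10), -3.25 ± 0.31 in 6KO1 (2.1e-09) and 1.77 ± 0.18 in E1E2 G9Gl (1e-08). Scn3a and Nalcn also fell in E1 and E1E2, while in 6KO2 Scn3a was at 13.0, 17.2 and 12.5 CPM, above all WT libraries.

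Of the 9 tested channels that release or refill the endoplasmic reticulum store, 4 were called higher in 6KO1, Ryr1 among them. In that comparison 30.9% of all tested genes were called. Itpr2, an inositol trisphosphate receptor, was at 3.12, 1.88 and 2.89 CPM in WT and 29.8, 26.5 and 30.2 in 6KO1, a rise of 3.46 ± 0.14 (edgeR adjusted p = 2.5e-16), and it also rose in 6KO2 (1.82 ± 0.14) and E1E2 G9Gl (2.71 ± 0.14). Stim1, the store sensor, rose by 1.53 ± 0.09 (edgeR adjusted p = 1.2e-12) and Orai2, a store-operated pore, by 2.10 ± 0.11 (5e-14) in 6KO1. Ryr1, the release channel of skeletal muscle, passed the filter only through 6KO1, where it had 12, 19 and 18 counts against 1, 3 and 3 in WT.

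Among pumps and exchangers, Atp2a3, a pump that refills the store, rose by 4.15 ± 0.29 in 6KO1 (edgeR adjusted p = 1.2e-11), by 3.19 ± 0.33 in 6KO2 (1.3e-08) and by 3.46 ± 0.32 in the clone E1E2 G9Gl (1.5e-09). Slc8a1, the main sodium-calcium exchanger of heart, had no count in WT, E1, E1 S1S2, E2, E1E2 or E1E2 G9Gl. It had 26 to 34 counts in the 6KO1 libraries and 9 to 16 in those of 6KO2, at least 27.5-fold and 15.1-fold higher than a WT floor of 3 counts over the group. Slc8a2 had 2 counts in WT in all and a count ratio of 25.2 in 6KO1 (6.65 to 213, counting error only). Slc8a3 rose by 1.83 ± 0.45 in 6KO1 (edgeR adjusted p = 0.00081) and by 1.59 ± 0.48 in 6KO2 (0.0059).

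**Figure D4:**
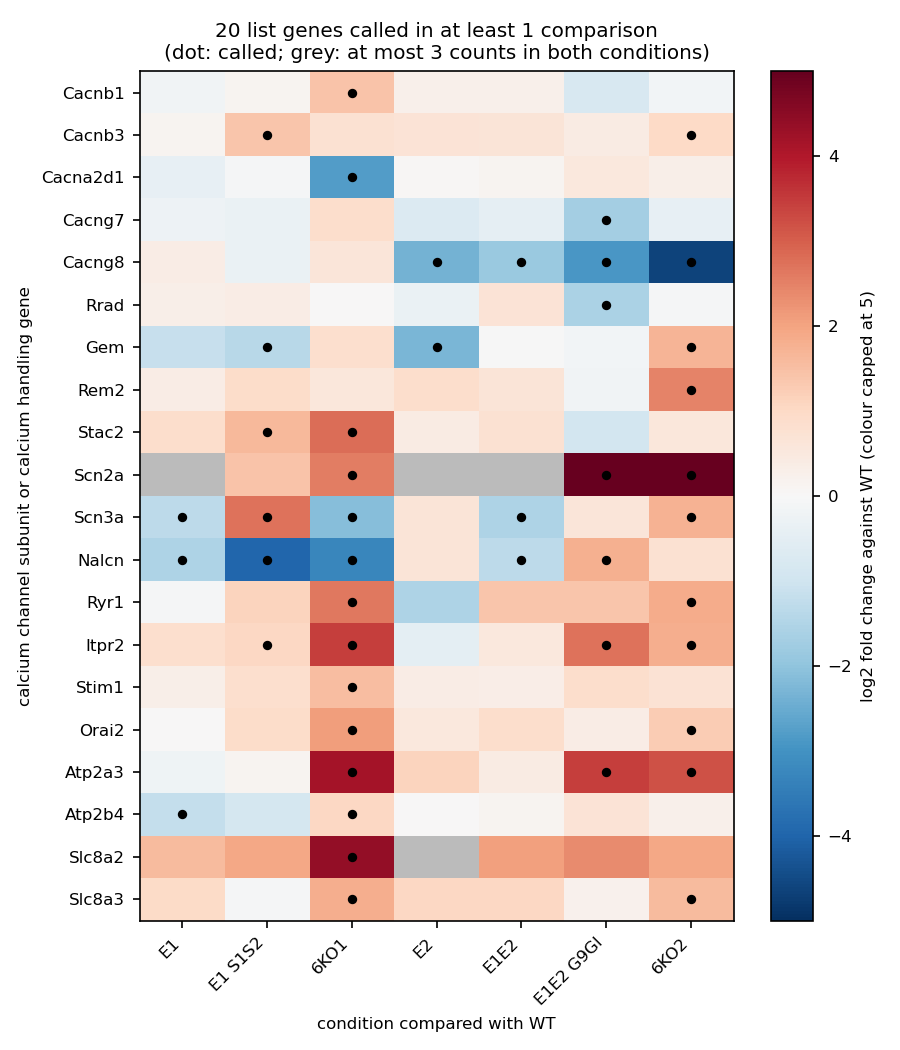
Log2 fold change against WT (colour, capped at 5) of 20 calcium channel subunit and calcium handling genes called in at least 1 of 7 comparisons; dots mark calls, and grey cells have at most 3 summed counts in both conditions. The 2 called genes with no count in WT are not drawn. Cacna2d1 is low in 6KO1 alone, Cacng8 is low in the 4 lines of series 2, and Itpr2 and Atp2a3 are high in E1E2 G9Gl, 6KO2 and 6KO1.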

How the data were processed

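Paired-end total RNA libraries of 24 MEF cultures (8 conditions, 3 biological replicates each, per the study's methods) had been trimmed with cutadapt 1.8.1 and aligned to GRCm38 with STAR 2.5.2b, per the labels. The authors then counted reads on genes and repeat elements with TEtranscripts and deposited whole-number counts without normalization. Here 1 malformed entry (at most 786 counts per library) was left out. Conditions came from the sample titles. The treatment text names 4-OHT for every sample, and the titles, which mark WT and E2 as controls, were followed.

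Low genes were removed by filterByExpr, given the condition, so that 18565 of 47937 were tested, and libraries were scaled by TMM. The quasi-likelihood test of edgeR 4.0.16 (R 4.3.3, limma 3.58.1) was two-sided, in a single model of the 24 libraries with a coefficient for each condition. A gene was called where its fold change reached 1 on the log2 scale in either direction and its p, adjusted after Benjamini-Hochberg over all tested genes, was 0.01 or lower. The interaction had no fold minimum. The SE was computed from the fold change and its F statistic. Depth was 24736829 to 37419071 counts per library, so intervals of count ratios, by the exact conditional binomial method, cover counting error only. Exon lengths and overlaps came from the GRCm38 gene annotation and promoter windows from RefSeq. The steps were tested on simulated data. Figures were drawn with matplotlib 3.10.9.

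The members and lists were chosen with earlier results of these data known. The text names the 9 members, the targeted enzyme genes where a result turns on them, up to 4 called genes of each of the 7 lists, those with the largest change in 6KO1, the 5 genes most correlated with Cacna1i and its 2 nearest tested neighbours on each side. Alternatives were DESeq2 1.42.0, RLE factors, factors from genes and repeats, no filter on low counts, no fold change minimum, unadjusted p, only the 6 libraries compared, a replicate block, and each library left out in turn. Of the list genes, 1 is counted in the totals and its own values are not reported here.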

Additional observations from a re-analysis of the deposited data

Results flagged for a closer look

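A difference between clones in the response to 4-OHT passed the test for 2 of the 5 tested members other than Cacna1i. For Cacna1c the interaction (the log2 change from E2 to E1E2 minus that from WT to E1) was 2.57 ± 0.21 (SE; edgeR adjusted p = 3.8e-09), and it passed in 29 of 29 alternatives, with values from 2.42 to 2.73. All 3 E1 libraries lay below all 3 WT libraries, and all 3 E1E2 libraries above all 3 E2 libraries. For Cacna1a the interaction was -1.02 ± 0.27 (edgeR adjusted p = 0.00991), and it passed in 10 of 29 alternatives, with adjusted p from 7.41e-07 to 0.036. The call was lost in 19 of the settings that leave out 1 library: any of E1, E1 S1S2, 6KO1, E1E2 or E1E2 G9Gl, WT replicate 2 or 3, E2 replicate 2 or 6KO2 replicate 3. The value moved most without E2 replicate 2, at 12.7 CPM against 7.61 and 5.87 in the other E2 libraries, to -0.63 (edgeR adjusted p = 0.036). The cause was not tested. The Dixon test for a single outlying value was not run, since the groups hold 3 libraries.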

How the results depend on the processing

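The 57 log2 fold changes of members of at least 0.5 in size were followed, and none changed direction under any alternative. Since they were picked by size, a change of direction was unlikely from the start. Among the 57 are those of Cacna1i against WT, which the choice of the family used. Cacna1e was followed only in comparisons with 6KO1, through which it passed the filter. Leaving out a library cost 7 calls among the 57 and added 3, and the other alternatives cost 3 and added 8. Calls against WT for members other than Cacna1i numbered 20, and 20 to 22 under the 8 alternatives other than leaving out a library. Calls between mutant lines numbered 21, and 20 to 23. These counts include Cacna1e, and those of the lists the 6 genes that passed the filter through a single condition (45 calls without them). List genes called against WT numbered 53, and 111 without a fold change minimum (80 up, 31 down), which the lower bar makes by construction. The interaction passed for 2 members, and for 4 with unadjusted p or without the filter on low counts. With each library left out in turn, the counts were 19 to 21 (members against WT), 19 to 23 (between lines), 47 to 55 (list genes) and 1 to 3 (interaction). The drop to 1 interaction is the loss of Cacna1a, and 3 came without WT replicate 2. The replicate numbers do not pair the libraries (correlations of same-numbered deviations from -0.291 to 0.240), and with them as a replicate block the 4 counts were 20, 20, 52 and 2. The fall of Cacna1g from E1E2 to E1E2 G9Gl was lost with the block (edgeR adjusted p = 0.0124) and with RLE factors (0.0106), within a range of 9.82e-05 to 0.0449 over its alternatives. The median log2 fold change of all genes was at most 0.07 under any scaling (6KO1). Depth limits the folds most where counts are few, as for Cacna1i in WT (12 summed counts), Cacna1g in 6KO1 (25) and Cacna1e.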

Other observations

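Summed skeletal and cardiac muscle markers were low in WT and higher in some lines, mostly through a few genes. The 9 skeletal muscle markers summed to 3.33 to 4.15 CPM in WT, 15.1 to 15.9 CPM in 6KO1 and 13.9 to 14.9 CPM in E1E2 G9Gl. Most of it in 6KO1 and E1E2 G9Gl was Des, at 12.7 and 11.8 CPM, against 1.30 CPM in WT. Myod1 and Myog, which define that cell type, were at 0 in WT, and Myod1 was at 0 in 6KO1. Both had a few counts in E1E2 G9Gl and 6KO2. The 7 cardiac markers summed to 4.00 to 6.06 CPM in WT, 17.6 to 22.6 in 6KO1, 34.0 to 38.1 in E1E2 G9Gl and 35.1 to 38.2 in 6KO2. Nppb and Tnnt2 made up most of it, at 2.27 and 2.28 CPM in WT and 14.7 and 5.62 CPM in 6KO1. The 5 endocrine markers summed to at most 0.587 CPM in any library. Of the muscle markers that passed the filter, 2 of 5 skeletal and 2 of 2 cardiac ones were called higher in 6KO1. There 1 skeletal marker was called lower, and 30.9% of all tested genes were called. The sums were not tested, and their part in the results for the alpha-1 genes was not tested.

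Cacna1d, left out by the filter on low counts, was called higher in E1E2 G9Gl than in WT when all genes with a count were tested (edgeR adjusted p = 0.00168, no other alternative tested it), at 3 to 6 counts per library. Its RefSeq windows held 4 and 63 CpG, the latter a number reached by 0.0304% of mouse promoter windows. Cacna1h and Cacna1s were called in none of the 13 comparisons in that setting.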
